A study of Mus musculus with 12 samples.

Results

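The enzymes of the pentose phosphate pathway were examined as 7 genes, G6pdx, Pgls, Pgd, Rpia, Rpe, Tkt and Taldo1, out of 55291 genes counted in mouse zygotes and 2-cell embryos. The genes were chosen by symbol around Taldo1, which was picked because its RNA was higher in KO at PN3 and lower in KO at L2C. The values of Taldo1 are therefore a description and carry no test. Poly(A) RNA was measured in 12 Smart-seq2 libraries, a method that copies RNA from its poly(A) tail and amplifies the copies. The 4 groups of 3 libraries were wild-type zygotes (WT PN3), zygotes with a maternal deletion of Pan2 (KO PN3), wild-type 2-cell embryos (WT L2C) and 2-cell embryos with the maternal Pan2 deletion (KO L2C). PN3 and L2C are the stage names in the labels, and the extraction protocol there speaks of oocytes in place of zygotes. Pan2 encodes the catalytic subunit of a deadenylase that shortens poly(A) tails. The sources used here do not give the Cre driver, the strain, the age of the females, the genotype of the fathers or the number of embryos in a library. The labels do not say that replicates are separate pools or females, so a p-value here speaks of the spread among libraries alone, which may be technical.

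The pentose phosphate pathway draws glucose 6-phosphate away from glycolysis. Its oxidative arm (G6pdx, Pgls and Pgd) reduces NADP to NADPH, which supplies lipid synthesis and the glutathione and thioredoxin systems, and ends in ribulose 5-phosphate. Its non-oxidative arm (Rpia, Rpe, Tkt and Taldo1) interconverts sugar phosphates, gives ribose 5-phosphate for nucleotides and returns carbon to glycolysis. Early mouse embryos depend mainly on pyruvate for energy, and glucose 6-phosphate dehydrogenase activity is known to be high in the mouse egg and to decline before implantation.

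The promoter windows of Taldo1 and G6pdx are shown because these genes had the clearest differences between groups. Each holds 250 bases before and 50 after the RefSeq gene start, on the strand of the gene (RefSeq, build GRCm38.p6), and all 7 genes had such a window. Capitals mark every match to GGGCGG (the GC box), CCAAT (the CCAAT box) or TGACNNNGC (the core of the antioxidant response element) on either strand, and no marked matches overlap. The Taldo1 window lies at chr7:141391910-141392209 on the plus strand and the G6pdx window at chrX:74428831-74429130 on the minus strand.
Taldo1: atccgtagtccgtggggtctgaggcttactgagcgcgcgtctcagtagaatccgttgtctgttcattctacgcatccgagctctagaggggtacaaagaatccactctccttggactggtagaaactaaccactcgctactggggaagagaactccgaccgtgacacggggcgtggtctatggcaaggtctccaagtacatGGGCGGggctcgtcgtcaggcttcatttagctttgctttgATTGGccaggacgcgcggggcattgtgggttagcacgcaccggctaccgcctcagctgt
G6pdx: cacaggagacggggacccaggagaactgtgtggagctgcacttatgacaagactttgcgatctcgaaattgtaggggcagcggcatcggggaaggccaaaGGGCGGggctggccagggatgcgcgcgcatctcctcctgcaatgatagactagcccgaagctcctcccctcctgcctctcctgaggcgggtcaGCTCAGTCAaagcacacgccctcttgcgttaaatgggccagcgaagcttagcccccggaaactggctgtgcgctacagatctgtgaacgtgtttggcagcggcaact
The Taldo1 window held a GC box at position -49 and a CCAAT box on the opposite strand at -9, counted from the start. The G6pdx window held a GC box at -150 and an antioxidant response element core on the opposite strand at -57. Neither window held CACGTG (the E-box) or TATAAA (the TATA box). Among 32851 promoter windows of this length, 35.66% held GGGCGG, 37.41% CCAAT, 12.39% TGACNNNGC, 7.15% CACGTG and 13.62% TATAAA. A match is a description of letters and was not tested as a binding site.

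Total counts were between 14453592 and 28624766 per library, and a count of 3 equalled 0.109 to 0.171 CPM (counts scaled to a library size of 1e6, corrected by TMM for differing RNA composition). Pan2, the targeted gene, had 174 ± 14.6 CPM in WT PN3 against 4.26 ± 2.56 CPM in KO PN3, and 63.8 ± 4.72 CPM in WT L2C against 22.5 ± 10.4 CPM in KO L2C (SD, n = 3). Replicate 2 of both PN3 groups and replicate 3 of both L2C groups stood apart. The rRNA gene CT010467.1 took 32.2% to 34.9% of counts in the former, against 4.35% to 5.63% in the other PN3 libraries. It took 24.0% to 34.0% in the latter, against 12.7% to 13.9% in the other L2C libraries. Replicates 1 and 2 at L2C were closer to each other (chi-square per degree of freedom 3.33 in WT and 3.59 in KO) than other pairs of a group (16.2 to 627). They differed by more than counting noise, but reads amplified by PCR are not independent molecules, so this does not show whether they are separate samples. They were kept apart as labelled, and with each such pair summed the genes called in KO against WT at L2C fell from 3593 to 351. All 6 listed oocyte and zygote markers had counts in each group, summing to 8337 to 14480 CPM at PN3, to 1083 to 1426 CPM in WT L2C, and to 1623 to 2806 CPM in KO L2C. The 6 markers of the 2-cell stage summed to 70.4 to 173 CPM at PN3, to 613 to 1136 CPM in WT L2C, and to 274 to 731 CPM in KO L2C. The 12 cumulus or granulosa markers summed to 15.95 to 53.9 CPM in single libraries. Cyp19a1 led them at PN3 (a mean of 28.6 CPM in WT and 35.1 CPM in KO). Tnfaip6 led them at L2C (9.58 CPM in WT and 7.26 CPM in KO). Inha was at 0 in all groups but WT PN3 and Fshr at 0 in both L2C groups. The 9 sperm markers summed to 13.35 to 48.4 CPM. They were led at PN3 by Prm2 (a mean of 11.2 CPM in WT and 9.88 CPM in KO), with Tnp1 and Smcp at 0 in both PN3 groups. At L2C they were led by Ldhc (a mean of 40.4 CPM in WT and 14.0 CPM in KO). Of the 8 oviduct, stroma or blood markers, at 0.203 to 86.05 CPM, Hba-a1 led at L2C with 45.45 to 81.6 CPM in single libraries, and Hbb-bs and Hbb-bt were at 0 in all groups but WT L2C.

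G6pdx, the X-linked gene of glucose 6-phosphate dehydrogenase, which commits glucose 6-phosphate to the pathway, was the most abundant member per exon length in 3 of the 4 groups and level with Taldo1 in WT L2C, and its RNA was higher in KO than in WT 2-cell embryos. At PN3 it stood at 723, 705 and 609 CPM in the WT libraries (replicates 1 to 3, the order used throughout) and at 624, 568 and 566 CPM in the KO libraries. At L2C it stood at 157.5, 169.5 and 120 CPM in WT and at 439, 459 and 355 CPM in KO. The groups overlapped at PN3, while at L2C each KO library was above each WT library and below each PN3 library. Group means were 679 ± 61.1 and 586 ± 32.5 CPM at PN3 and 149 ± 25.6 and 418 ± 54.9 CPM at L2C (WT then KO, SD, n = 3). G6pdx was 2.80-fold higher in KO than in WT at L2C (log2 fold change 1.49, SE 0.20, edgeR adjusted p = 0.000903), in 3 of 3 libraries. Adjusted p-values are Benjamini-Hochberg values of edgeR's quasi-likelihood test over all 21160 genes tested, and a gene was called under 0.05. At PN3 the log2 fold change was -0.21 (SE 0.19, edgeR adjusted p = 0.81). The KO effect at L2C exceeded that at PN3 by 1.70 on the log2 scale (SE 0.28, edgeR adjusted p = 0.00706). The call at L2C held in all 15 alternatives, with an edgeR adjusted p of up to 0.0339. The call on the difference between stages was lost with L2C replicates 1 and 2 summed (edgeR adjusted p = 0.0901).

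The locus of G6pdx is chrX:74409483-74429194 on the minus strand (mm10, as are all gene coordinates here). Of its 3080 exon bases, 418 are shared with Ikbkg on the opposite strand. Ikbkg stood at 1.73, 1.42, 6.22 and 3.93 CPM in WT PN3, KO PN3, WT L2C and KO L2C, so it was lower in KO than in WT at L2C and far below G6pdx in each group. Counting with strand is not stated, so reads of the shared stretch cannot be told apart.

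Pgls encodes the lactonase that follows G6pdx (chr8:71592176-71601092, plus strand), and its RNA was near the limit of detection. The gene was at 0.837, 1.16 and 0.262 CPM in WT PN3, at 0.649, 2.30 and 1.57 CPM in KO PN3, and at 1.13, 1.25 and 1.34 CPM in WT L2C. In KO L2C it had 0, 0 and 77 counts, so that replicates 1 and 2 lay below 0.171 and 0.162 CPM, the level of 3 counts, and replicate 3 at 3.86 CPM. The KO L2C libraries lay on both sides of the WT ones, with the rRNA-rich library the high one. The log2 fold change at L2C was 0.06 (SE 1.31, edgeR adjusted p = 0.982). Without KO L2C replicate 3 only libraries at 0 counts remained, and edgeR called the gene lower (adjusted p = 0.00808). Fam129c on the same strand shares 776 of the 3770 exon bases of Pgls and stood at 1.42, 0.83, 6.31 and 6.10 CPM in the same order of groups.

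Pgd encodes the dehydrogenase that makes NADPH from 6-phosphogluconate (chr4:149149991-149166771, minus strand). At PN3 it stood at 12.3, 12.3 and 4.64 CPM in WT and at 13.7, 29.2 and 10.1 CPM in KO. At L2C it stood at 42.1, 45.5 and 59.98 CPM in WT and at 27.0, 22.4 and 36.8 CPM in KO. The PN3 groups overlapped, and at L2C all KO libraries lay below all WT libraries. The rRNA-rich library was at 1.45, 2.455, 1.37 and 1.49 times the mean of the other 2 (WT PN3, KO PN3, WT L2C, KO L2C). The log2 fold change in KO was 0.85 at PN3 (SE 0.43, edgeR adjusted p = 0.54) and -0.77 at L2C (SE 0.43, edgeR adjusted p = 0.236), so neither passed. Without 1 library these values ran from 0.28 to 1.12 and from -0.99 to -0.54. With same-numbered libraries of a stage paired by a replicate block, the L2C value was -0.79 and passed (edgeR adjusted p = 0.0208). The difference between the stages' KO effects was -1.63 (edgeR adjusted p = 0.141) and passed with the block (-1.62, edgeR adjusted p = 0.00657). Without 1 library this difference ran from -1.85 to -1.02.

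**Figure D1:**
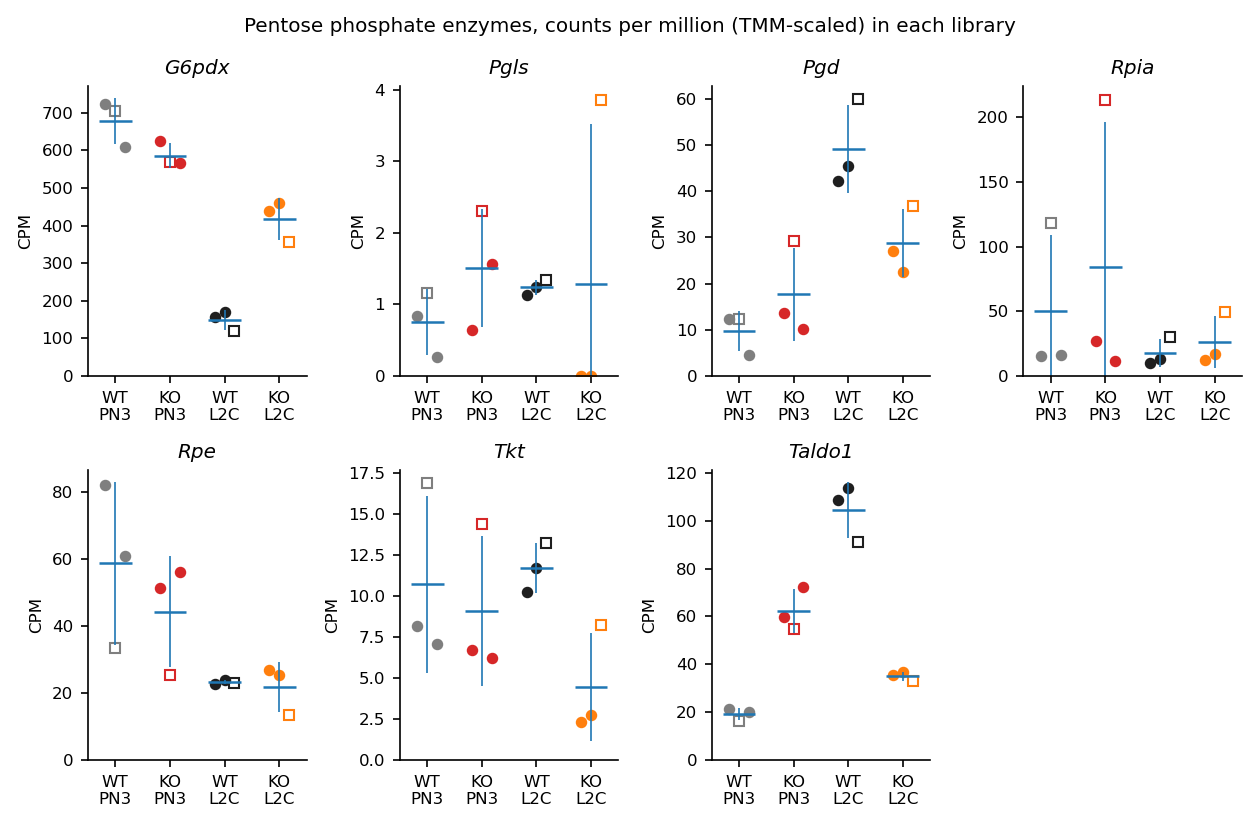
CPM (TMM-scaled, linear axis from 0, 1 axis per gene) of the 7 enzymes in each of the 12 libraries, with the mean and SD of each group of 3. Open squares are the rRNA-rich libraries, replicate 2 at PN3 and replicate 3 at L2C. G6pdx falls between the stages less far in KO (418 CPM at L2C) than in WT (149 CPM), Taldo1 reverses its order between the stages, and the open square is the high point of Rpia in every group.

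Rpia, the isomerase that makes ribose 5-phosphate (chr6:70765720-70792232, minus strand), was dominated by the rRNA-rich libraries. At PN3 it stood at 15.3, 118 and 15.9 CPM in WT and at 27.3, 213 and 11.4 CPM in KO. At L2C it stood at 10.4, 13.0 and 30.5 CPM in WT and at 12.3, 16.8 and 49.1 CPM in KO. The rRNA-rich library was the highest of each group, at 7.59, 11.0, 2.60 and 3.38 times the mean of the other 2 (WT PN3, KO PN3, WT L2C, KO L2C). With all 12 libraries and no replicate block, no difference of Rpia passed edgeR's test, and its KO against WT values were 0.75 (SE 1.004) at PN3 and 0.54 (SE 1.01) at L2C on the log2 scale. The part of rRNA content in these levels was not tested.

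Rpe, the epimerase that makes xylulose 5-phosphate (chr1:66700831-66719805, plus strand), was at 81.8, 33.4 and 60.7 CPM in the WT libraries at PN3 and at 51.1, 25.3 and 56.1 CPM in the KO libraries. L2C levels were 22.7, 23.8 and 23.0 CPM in WT and 26.9, 25.2 and 13.3 CPM in KO. WT and KO overlapped at both stages, and the rRNA-rich library was the lowest in 3 of the 4 groups. The log2 fold change in KO was -0.41 (SE 0.37, edgeR adjusted p = 0.807) at PN3 and -0.09 (SE 0.37, edgeR adjusted p = 0.904) at L2C. Kansl1l on the opposite strand shares 558 of the 3113 exon bases of Rpe and stood at 15.8, 15.65, 6.59 and 11.8 CPM in the 4 groups, in the order used above.

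Tkt encodes transketolase, which transfers carbon units between sugar phosphates with thiamine as cofactor (chr14:30548359-30574720, plus strand). PN3 levels were 8.19, 16.9 and 7.04 CPM in WT and 6.69, 14.4 and 6.19 CPM in KO. L2C levels were 10.2, 11.7 and 13.2 CPM in WT and 2.34, 2.75 and 8.22 CPM in KO. The L2C groups did not overlap, and the high KO library was again the rRNA-rich one. The log2 fold change at L2C was -1.40 (SE 0.53, edgeR adjusted p = 0.0891), short of a call, and at PN3 it was -0.24 (SE 0.52, edgeR adjusted p = 0.993). At L2C the value passed with the replicate block (-1.61, edgeR adjusted p = 0.00452), without KO L2C replicate 3 (-2.20, edgeR adjusted p = 0.0148) and by DESeq2 (-1.45, adjusted p = 0.0433). It also passed without the rRNA-rich libraries (-2.04, edgeR adjusted p = 7.23e-05). The difference between the stages' KO effects was -1.16 (edgeR adjusted p = 0.395). Without the rRNA-rich libraries this difference passed (-1.79, edgeR adjusted p = 0.00343).

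Taldo1 encodes transaldolase, which acts beside transketolase in returning sugar phosphates to glycolysis (chr7:141392199-141402968, plus strand, with no exon shared with another gene). PN3 levels were 21.35, 16.5 and 19.9 CPM in WT and 59.7, 54.7 and 72.35 CPM in KO. L2C levels were 109, 113.5 and 91.1 CPM in WT and 35.6, 36.6 and 33.0 CPM in KO. In order, WT L2C was highest, then KO PN3, KO L2C and WT PN3, and no neighbouring groups overlapped. Group means in that order were 104 ± 11.8, 62.2 ± 9.10, 35.05 ± 1.85 and 19.25 ± 2.49 CPM (SD, n = 3). KO was 3.23-fold higher than WT at PN3 (log2 fold change 1.69, SE 0.20) and 2.98-fold lower at L2C (log2 fold change -1.58, SE 0.20). Over the alternatives these values ran from 1.52 to 1.76 and from -1.65 to -1.36. The rRNA-rich library was the lowest of each group, at 0.80 to 0.914 times the mean of the other 2.

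**Figure D2:**
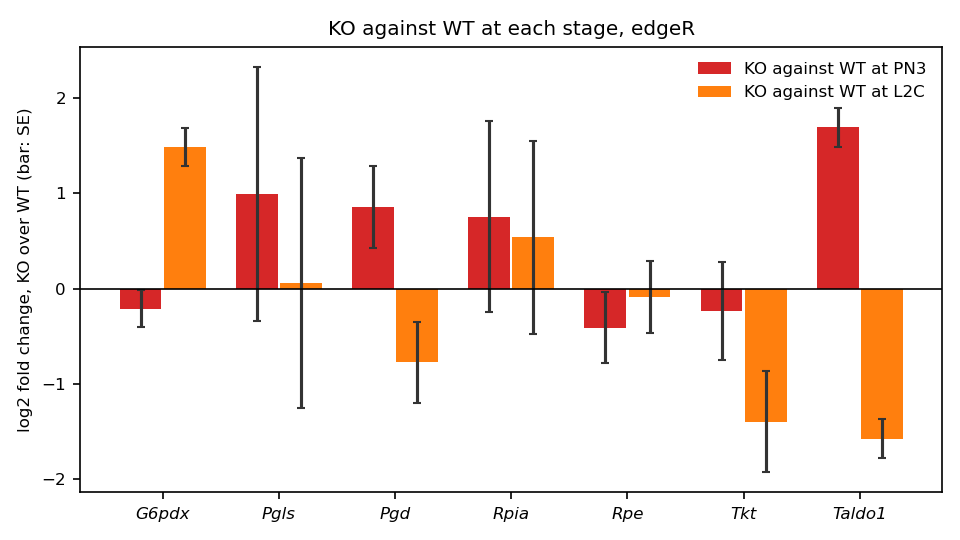
Log2 fold change of KO over WT for each enzyme at PN3 and at L2C from edgeR (bars start at 0, error bars are SE, 3 libraries per group). G6pdx is at -0.21 and 1.49, Taldo1 at 1.69 and -1.58, and the SE of Pgls and Rpia is near or above 1.

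Counted over the 6 members other than Taldo1, 0 were called in KO against WT at PN3 by edgeR, 0 had an unadjusted p under 0.05 and 0 were called by DESeq2. Of all genes tested 0.132% were called there, 0.0898% higher and 0.0425% lower, and 10.1% had an unadjusted p under 0.05. DESeq2 called 2.68% of all genes with an adjusted p. At L2C, G6pdx was called higher and 0 were called lower, where 17% of all genes were called, 7.24% higher and 9.74% lower. The groups did not overlap for 0 of the 6 at PN3 and for 3 of the 6 at L2C (G6pdx, Pgd and Tkt), against 12.9% and 43.6% of all genes. The comparison chose Taldo1, so nothing is read from these counts. The median log2 fold change of the 6 was 0.27 at PN3 and -0.01 at L2C, and that of all genes 0.00 and 0.02. For the difference between the stages' KO effects, G6pdx alone was called of the 6, with a positive value, where 4.94% of all genes were called, 1.85% positive and 3.09% negative.

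Between the stages in WT, the 2 NADPH-making enzymes moved in opposite directions. G6pdx fell by 2.19 on the log2 scale (SE 0.20, edgeR adjusted p = 1.50e-06), while Pgd rose by 2.34 (SE 0.45, edgeR adjusted p = 0.000596), and all 3 L2C libraries lay outside the PN3 range for both. Rpe fell by 1.34 (SE 0.38, edgeR adjusted p = 0.00795), and this call was lost with libraries scaled by totals alone (edgeR adjusted p = 0.0664). Tkt was at 0.13 (edgeR adjusted p = 0.834), Pgls at 0.72 (edgeR adjusted p = 0.654) and Rpia at -1.47 (edgeR adjusted p = 0.227). Rpia passed with the replicate block (-0.95, edgeR adjusted p = 0.0056). Taldo1, as a description, was 2.44 higher on the log2 scale (SE 0.21). Of the 6 other members 1 was higher and 2 were lower, where 61.6% of all genes were called, 36.2% higher and 25.4% lower. The groups did not overlap for these same 3 genes, against 70.3% of all genes.

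Between the stages in KO, G6pdx stood at -0.49 (SE 0.19, edgeR adjusted p = 0.0488) and Rpe at -1.02 (SE 0.38, edgeR adjusted p = 0.0363), and these were the 2 members called, both lower. The G6pdx call was lost without any single library of the 6 (edgeR adjusted p of 0.0524 to 0.137). The Rpe call was lost without KO PN3 replicate 1 (0.117) or 3 (0.135) and without KO L2C replicate 2 (0.065) or 3 (0.12), all as edgeR adjusted p. Pgd stood at 0.71 (edgeR adjusted p = 0.182), Tkt at -1.03 (edgeR adjusted p = 0.118) and Rpia at -1.69 (edgeR adjusted p = 0.185). With the replicate block these passed at 0.81 (edgeR adjusted p = 0.00988), -1.11 (edgeR adjusted p = 0.0135) and -0.94 (edgeR adjusted p = 0.00656). Of all genes 53.6% were called in this comparison, 33.5% higher and 20.1% lower. Of the 6, the groups did not overlap for G6pdx alone, against 59.8% of all genes. Taldo1 was 0.83 lower on the log2 scale (SE 0.20), in the opposite direction to WT.

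The WT L2C libraries enter both KO against WT at L2C and L2C against PN3 in WT, with opposite signs. Values of the same gene in them are thus not independent. An error in the WT L2C level alone would move the 2 values in opposite directions. Side by side, in that order, G6pdx was at 1.49 and -2.19, Pgd at -0.77 and 2.34, Tkt at -1.40 and 0.13, Rpe at -0.09 and -1.34 and Taldo1 at -1.58 and 2.44, all log2 fold changes. Pgls was at 0.06 and 0.72 and Rpia at 0.54 and -1.47. The summed CPM of the 6 oocyte and zygote markers was also higher in KO L2C than in WT L2C libraries (the 2 ranges given above do not overlap). At L2C the groups did not overlap for 43.6% of all genes tested. Bmp15 made up most of this marker sum. Among those markers Bmp15, the most abundant, stood at 880 ± 169 CPM in WT against 1858 ± 611 CPM in KO (SD, n = 3, log2 fold change 1.08, edgeR adjusted p = 0.0502). Ooep was higher in KO (log2 fold change 1.26, edgeR adjusted p = 0.00944), Zp3 was lower (-1.33, edgeR adjusted p = 0.00122) and Mos stood at 0.02 (edgeR adjusted p = 0.97). Gdf9 (0.37, edgeR adjusted p = 0.219) and Nlrp5 (0.60, edgeR adjusted p = 0.096) were not called, so the markers did not move together. The part of embryo stage in the differences of G6pdx, Pgd and Taldo1 at L2C was not tested. In libraries of whole embryos, fewer cells with a transcript and less of it per cell cannot be told apart, nor can less RNA and RNA with a tail too short to be primed.

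To compare levels between genes, CPM was divided by exon length in kilobases. This length counts all annotated exon bases of a gene (2171 for Taldo1, 3080 for G6pdx, 6447 for Pgd and 7355 for Tkt). Transcripts present may be shorter, which would understate the level and share of a gene. Their lengths were not measured, so levels and shares compared between genes depend on the annotation. The 7 enzymes summed to 261 ± 25.6 CPM per kb in WT PN3, 253 ± 12.4 in KO PN3, 117 ± 10.5 in WT L2C and 169 ± 15.2 in KO L2C (SD, n = 3). G6pdx made up 84.6% ± 0.99 of this sum in WT PN3, 75.3% ± 5.03 in KO PN3, 41.2% ± 3.64 in WT L2C and 80.0% ± 3.52 in KO L2C (SD, n = 3). Taldo1 made up 3.43% ± 0.60, 11.4% ± 2.24, 41.1% ± 1.26 and 9.57% ± 0.38 in the same groups. The shares of both in KO L2C libraries overlapped those in KO PN3 libraries, and in WT L2C G6pdx and Taldo1 had almost the same share. Taldo1 per length was 95.0% to 107% of G6pdx in WT L2C libraries, 11.3% to 13.2% in KO L2C, 13.57% to 18.1% in KO PN3 and 3.32% to 4.63% in WT PN3. The remaining members each made up less than 10% of the sum in each group on average. Of these Pgd reached 6.63% ± 1.89 in WT L2C and 2.69% ± 0.95 in KO L2C, and Rpe 7.29% ± 2.96 in WT PN3. Rpia was at 5.97% ± 7.87 in KO PN3, from 0.884% to 15.0% in single libraries, with the rRNA-rich library the highest.

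**Figure D3:**
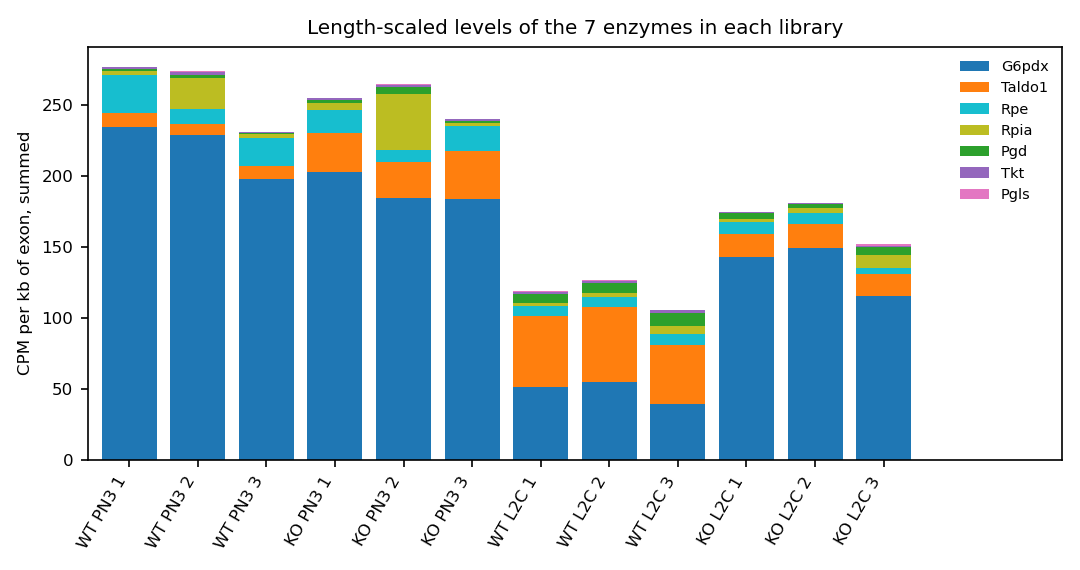
CPM per kilobase of exon (all annotated exon bases) of the 7 enzymes, stacked for each of the 12 libraries (linear axis from 0). G6pdx fills most of every bar except in the WT L2C libraries, where Taldo1 has a like share (41.2% and 41.1% on average), and Rpia is widest in PN3 replicate 2 of each genotype.

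Likeness to Taldo1 was measured as Pearson's r of log2 CPM over the 12 libraries, which share 4 group means. Ranked were 9681 genes whose mean reached 5 CPM, leaving out symbols of the Gm-number, Rik or clone-name type. The likest were Tada2a (r = 0.969), a subunit of histone acetyltransferase complexes, Dhx8 (0.956), a splicing helicase, and Tmem159 (0.947), a lipid droplet protein. Leo1 (0.924), a subunit of the PAF1 complex of transcription elongation, and Ppp1r15a (0.913), a regulatory subunit of protein phosphatase in the stress response, followed. These are the genes with the pattern of Taldo1, so their levels are a description. Dhx8 stood at 34.05 ± 1.59, 68.6 ± 11.3, 157 ± 3.69 and 51.2 ± 5.42 CPM in WT PN3, KO PN3, WT L2C and KO L2C (SD, n = 3), in the same order of groups as Taldo1. Of the members the nearest to Taldo1 were Pgd (0.649) and Pgls (0.273), and G6pdx was the farthest (-0.749).

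Other genes around the pathway were examined as a list of 19, of which 14 passed the filter on low counts. G6pd2, Shpk, Rbks, Prps1l1 and Glyctk did not pass it, with group means of at most 1.15 CPM. At PN3 edgeR called 0 of the 14, with 1 at an unadjusted p under 0.05 and 0 called by DESeq2, and their median log2 fold change was 0.05. The shares of all genes were 0.132%, 10.1% and 2.68% for these 3 counts, in that order. At L2C 1 was called higher and 3 lower (28.6% of the list, against 17% of all genes), with a median of -0.65 against 0.02 for all genes. With the replicate block 2 were called higher and 4 lower, where 32.2% of all genes were called, and with L2C replicates 1 and 2 summed 0 were called, where 1.55% were.

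Tigar, a bisphosphatase known to direct glucose 6-phosphate into the pathway, was at 184, 212 and 170 CPM in WT L2C, and in KO L2C at 68.6, 64.3 and 69.5 CPM. The groups were far apart and Tigar was called lower (log2 fold change -1.49, SE 0.36, edgeR adjusted p = 0.0147). Fbp1, the fructose bisphosphatase of gluconeogenesis, was at 4.87, 3.52 and 3.57 CPM in WT L2C, and in KO L2C at 10.85, 9.75 and 8.27 CPM, against 26.6 to 96.9 CPM at PN3. It was called higher at L2C (1.27, SE 0.36, edgeR adjusted p = 0.0289) and its KO against WT value at PN3 was -0.56 (edgeR adjusted p = 0.631).

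Prps1, which makes phosphoribosyl pyrophosphate from ribose 5-phosphate, stood at 1.06 to 4.47 CPM over the PN3 libraries, in WT L2C at 1300, 1338 and 678 CPM and in KO L2C at 393, 382 and 85.9 CPM. It was called lower in KO at L2C (-1.95, SE 0.56, edgeR adjusted p = 0.0307), as was its close copy Prps1l3 (-1.92, SE 0.47, edgeR adjusted p = 0.0158). Prps1l3 was at 152, 147 and 104 CPM in WT L2C, and in KO L2C at 44.6, 46.8 and 15.0 CPM. The sources used here do not give how reads that match both copies were counted, so the split between them is uncertain. The rRNA-rich library was the lowest of its L2C group for both.

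The transketolase-like genes differed from Tkt in their course. Tktl1 was at 1.27 to 3.76 CPM over the PN3 libraries and rose between the stages in WT to 71.3, 63.5 and 38.5 CPM (log2 fold change 5.26, SE 0.43, edgeR adjusted p = 5.46e-07). In KO L2C it stood at 41.1, 42.6 and 18.2 CPM, overlapping WT (-0.77, edgeR adjusted p = 0.154, and -0.82 and 0.0118 with the replicate block). Tktl2 was at 3.95, 4.44 and 5.43 CPM in WT L2C, and in KO L2C at 9.19, 11.4 and 7.27 CPM, without overlap (1.01, edgeR adjusted p = 0.0963, and 1.002 and 0.0259 with the block). At PN3 its KO against WT value was 0.74 (edgeR adjusted p = 0.562). The log2 fold changes at L2C of the genes not yet named, none of them called with or without the block, were 1.05 for H6pd, 0.82 for Dera, -0.03 for Idnk, -0.34 for Rgn, -0.53 for Pgm2, -0.85 for Fbp2, -1.28 for Prps2 and -1.86 for Pgm1.

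**Figure D4:**
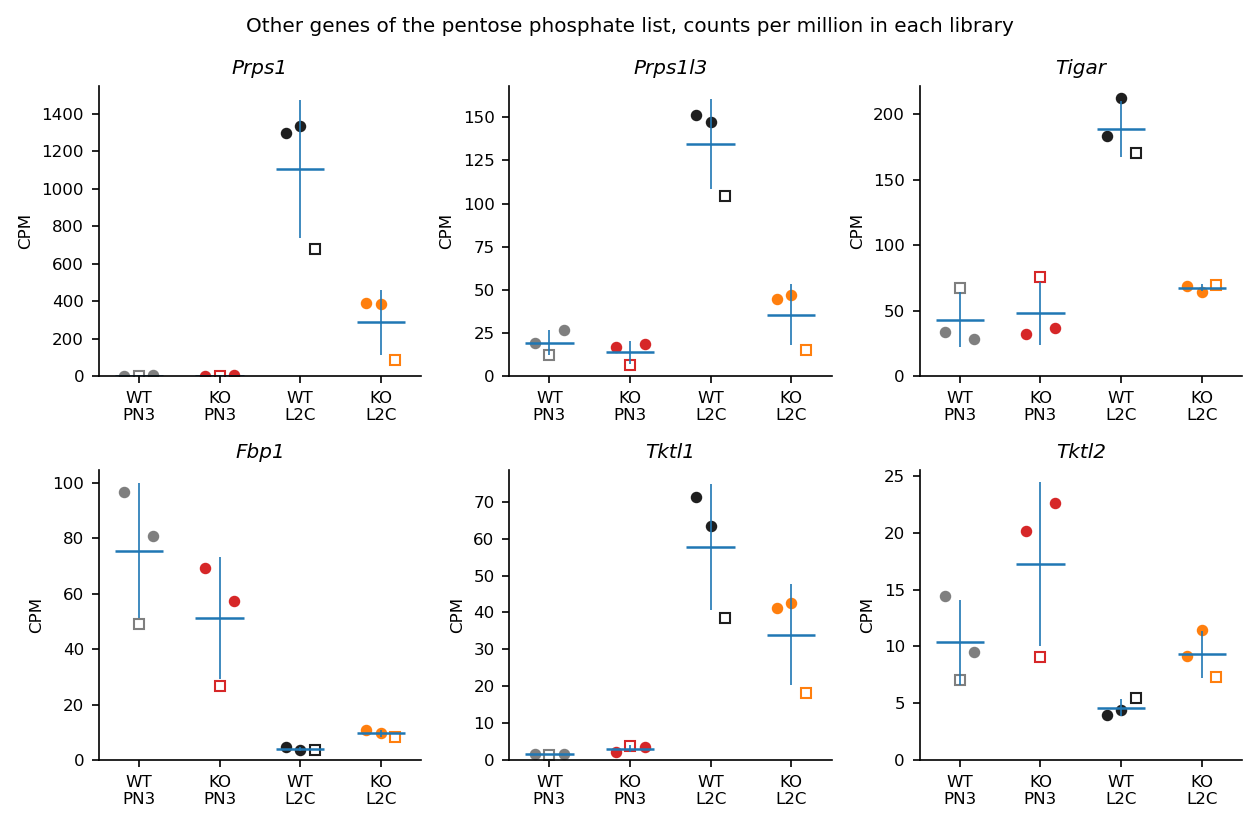
CPM in each of the 12 libraries for 6 other genes of the pathway list, drawn as in the plot of the 7 enzymes (open squares are rRNA-rich libraries, bars are mean and SD of 3). Prps1, Prps1l3 and Tigar are lower in KO than in WT at L2C (Tigar 64.3 to 69.5 against 170 to 212 CPM), and Fbp1 and Tktl2 are higher.

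The adjoining pathways were counted in the same fit, where 17% of all genes were called at L2C, and 32.2% with the replicate block. With L2C replicates 1 and 2 summed, the calls in the 4 lists below numbered 0, 0, 0 and 1, where 1.55% of all genes were called. Without the rRNA-rich libraries they numbered 15, 8, 15 and 16, where 45.2% were. Nothing particular to a list is read from these counts. Of 25 glycolysis genes, all tested, 2 were called higher and 3 lower at L2C (20%, and 5 higher and 5 lower with the replicate block), with a median log2 fold change of -0.08. Pgam2, the muscle form of phosphoglycerate mutase, was at 18.3 ± 2.02 CPM in WT L2C against 2.00 ± 0.35 CPM in KO L2C (log2 fold change -3.19, edgeR adjusted p = 0.00599). Hk2, a hexokinase that makes the glucose 6-phosphate used by G6pdx, stood at 4.89 ± 0.72 and 18.4 ± 4.04 CPM (1.91, edgeR adjusted p = 0.0156). Aldoa, an aldolase, stood at 23.7 ± 1.603 and 45.6 ± 7.48 CPM (0.94, edgeR adjusted p = 0.0174).

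The list of other NADPH producers held 15 genes, and the cofactor each enzyme uses was not examined here. Of these 13 were tested, and 2 were called higher and 0 lower at L2C (15.4%, and 4 higher with the replicate block), with a median of 0.48. Mthfd2, a mitochondrial folate dehydrogenase, was at 127 ± 15.15 CPM in WT L2C against 217 ± 28.5 CPM in KO L2C (log2 fold change 0.77, edgeR adjusted p = 0.0146). Idh1, the cytosolic isocitrate dehydrogenase, stood at 4.55 ± 1.51 and 12.2 ± 4.82 CPM (1.42, edgeR adjusted p = 0.0428). Mthfd1, the cytosolic folate counterpart of Mthfd2 with several activities, was at 0.48 (edgeR adjusted p = 0.182).

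Of 32 genes of the glutathione and thioredoxin systems, which use NADPH, 31 were tested, and 0 were called higher and 4 lower at L2C (12.9%, and 4 higher and 7 lower with the replicate block), with a median of -0.04. Glrx3, a glutaredoxin, was at 47.4 ± 1.33 CPM in WT L2C against 20.3 ± 2.17 CPM in KO L2C (log2 fold change -1.23, edgeR adjusted p = 0.00904). Prdx3, a mitochondrial peroxiredoxin, stood at 10.8 ± 0.47 and 3.40 ± 0.98 CPM (-1.66, edgeR adjusted p = 0.015), and Gpx4, the lipid peroxide reductase, at 214 ± 8.08 and 117 ± 35.2 CPM (-0.87, edgeR adjusted p = 0.0185).

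Of 24 genes of pyruvate use and the citrate cycle, all tested, 1 was called higher and 5 lower at L2C (25%, and 4 higher and 10 lower with the replicate block), with a median of -0.33. Idh3b, a subunit of the mitochondrial isocitrate dehydrogenase, was at 48.1 ± 11.8 CPM in WT L2C against 9.003 ± 0.67 CPM in KO L2C (log2 fold change -2.42, edgeR adjusted p = 0.000523). Mpc2, of the mitochondrial pyruvate carrier, stood at 246.5 ± 16.1 and 113 ± 9.23 CPM (-1.13, edgeR adjusted p = 0.005). Mdh2, the mitochondrial malate dehydrogenase, stood at 259 ± 52.7 and 104 ± 20.6 CPM (-1.32, edgeR adjusted p = 0.00587). All ± in these lists are SD with n = 3.

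**Figure D5:**
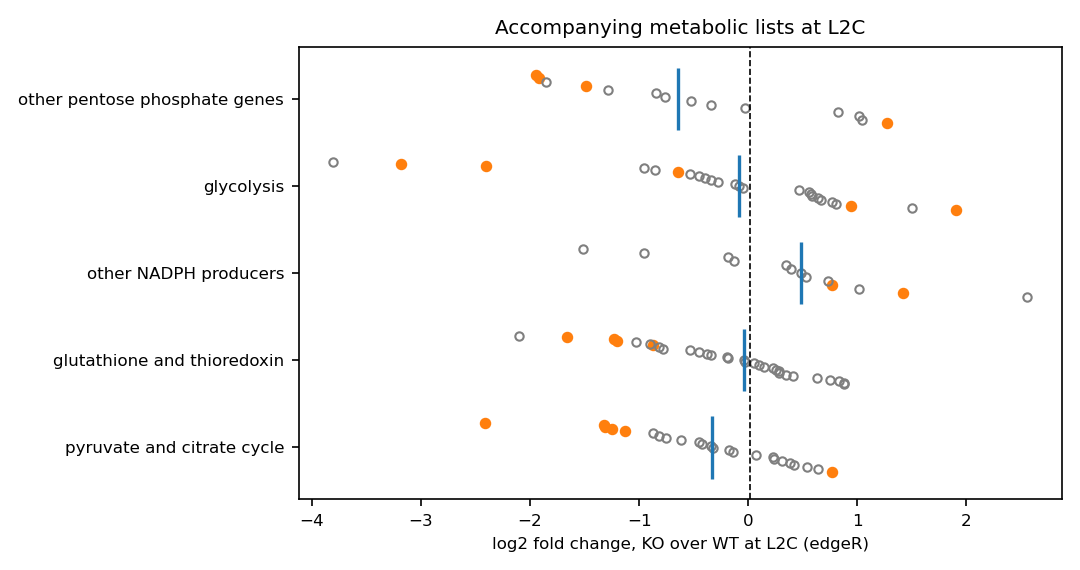
Log2 fold change of KO over WT at L2C from edgeR for every tested gene of the 5 lists, 1 point per gene. Filled points were called, the solid bar is the median of the list, and the dashed line is the median of all 21160 genes tested (0.02). The medians lie between -0.65 (other pentose phosphate genes) and 0.48 (other NADPH producers), and each list spans both sides of the dashed line.

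At PN3 edgeR called 0 members of each of these 4 lists. An unadjusted p under 0.05 was found for 5, 2, 8 and 1 of them, in the order of the text, against 10.1% of all genes. DESeq2 called 1, 0, 3 and 0, against 2.68% of all genes with an adjusted p. Without the rRNA-rich libraries edgeR called 4, 1, 9 and 4, against 9.36% of all genes. With the replicate block 1, 0, 5 and 0 were called, against 2.67% of all genes, among them Tpi1 (edgeR adjusted p = 0.0391), Txn2 (0.0155) and Gpx1 (0.0117). The 2 genes of lowest adjusted p in each list, among those with at least 5 CPM in the higher group, were Tpi1 (log2 fold change -0.81, edgeR adjusted p = 0.328), Slc2a1 (-0.60, 0.454), Me2 (-0.46, 0.427), Mthfd1 (-0.56, 0.444), Txn2 (-0.64, 0.224), Gpx1 (0.92, 0.237), Idh3b (-0.83, 0.337) and Sdhd (-0.49, 0.565). In KO against WT at L2C, 4 of the list genes named above, Pgam2, Idh3b, Mpc2 and Mdh2, kept their calls without any single L2C library, with edgeR adjusted p of at most 0.04. Each of the other 11 lost its call without at least 1. Glrx3 lost it without WT L2C replicate 2 (0.0508), Tigar without replicate 2 of WT L2C (0.0527) or of KO L2C (0.0554), and Mthfd2 without replicate 1 of WT L2C (0.0542) or replicate 2 of KO L2C (0.0501). Hk2 and Prps1l3 lost theirs without replicate 1 or 2 of WT L2C, and Prdx3 without these or replicate 2 of KO L2C, with edgeR adjusted p of up to 0.0827. Aldoa lost its call without replicate 1 or 2 of either L2C group (up to 0.0718). Fbp1, Idh1 and Gpx4 kept theirs only without KO L2C replicate 3, and Prps1 only without WT L2C replicate 3, with an edgeR adjusted p of up to 0.145 otherwise.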

How the data were processed

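The 12 libraries were grouped by the titles in the labels. Per the labels' protocols, RNA was primed with oligo(dT), amplified for about 12 cycles and sequenced as paired reads of 151 bases. The authors deposited raw read counts per gene, as whole numbers without normalization, per the file headers. The submitters' processing notes name the mm10 build, DESeq2, featureCounts 2.0.2, STAR 2.7.10a and Trim Galore 0.6.7. The sources used here do not give strand or multi-mapping settings and name no spike-in, so a level is a share of its library.

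Genes were kept by filterByExpr of edgeR 4.0.16 (21160 of 55291) and tested in R 4.3.3 with TMM scaling and a robust quasi-likelihood fit of all 12 libraries, 1 mean per group, adjusted over all genes tested. Alternatives were RLE and upper quartile scaling, library totals, no filter, DESeq2 1.42.0, a replicate block within the stage, only the groups compared, leaving out each library or the rRNA-rich ones, and summing L2C replicates 1 and 2. Deviations of same-numbered libraries from their group means correlated by 0.165, 0.455 and 0.274 (PN3, replicates 1 to 3) and by 0.128, 0.15 and 0.221 (L2C). All exceeded 0.1, but the same correlation was not computed for differently numbered libraries, so there is no value to set beside them. The rRNA-rich library enters the group mean of both genotypes, so these values cannot show that the numbers pair libraries. The labels do not give a pairing either, so calls with the replicate block rest on an assumed pairing. The rRNA-rich libraries are the same number in both groups of a stage. Floors of 3 counts cover counting error only. The procedure was also run on simulated counts, with libraries drawn independently around 1 mean per group. These held no rRNA-rich library and no close pair of replicates, so they cannot show how such libraries affect the calls.

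The members and lists were chosen with earlier results of these data known. Named genes are the members, the 3 list genes of lowest adjusted p at L2C and the 2 at PN3 with at least 5 CPM in the higher group, all other pentose phosphate genes, Pan2, and the 5 genes likest to Taldo1 (log2 CPM with a prior count of 2). The marker genes Ooep, Zp3, Mos, Gdf9, Nlrp5, Cyp19a1, Tnfaip6, Prm2, Ldhc and Hba-a1 and the overlapping genes were named after their values were seen. Symbols, overlaps and exon lengths come from GENCODE M21. Promoters come from RefSeq, and protein sequences were not used here.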

Additional observations from a re-analysis of the deposited data

Results flagged for a closer look

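For G6pdx the effect of the maternal Pan2 deletion at L2C exceeded that at PN3 by 1.70 on the log2 scale (edgeR interaction test, SE 0.28, adjusted p = 0.00706). The 3 KO libraries were above the 3 WT libraries at L2C, and the groups overlapped at PN3. Taldo1 had the opposite course, with a difference of -3.27 (SE 0.29): all KO libraries were above WT at PN3 and below WT at L2C. Taldo1 was chosen for this reversal, so its difference was not tested.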

How the results depend on the processing

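Of 560 values of the 7 enzymes under the alternatives, 481 kept their direction and side of the threshold (or, for Taldo1, stayed within the spread). Another 25 lost a call, 21 gained one, 29 changed sign and 4 moved by more than the spread. Upper quartile scaling shifted the median gene at L2C by 0.21 on the log2 scale and turned the calls there from 1531 higher and 2062 lower to 2307 higher and 1496 lower. With it Taldo1 stood at -1.36, a difference from -1.58 close to that shift, and Rpe changed sign (0.12).

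Rpe at L2C also changed sign with only the groups compared (0.0026) and without the rRNA-rich libraries (0.23). Pgls at L2C changed sign with library totals (-0.0078), the block (-2.47) and without the rRNA-rich libraries (-7.64). Between the stages in KO it was at 0.15 with library totals and 0.40 with L2C replicates 1 and 2 summed. The difference between stages in the KO effect of Rpia was 0.011 with the replicate block and 0.064 without the rRNA-rich libraries. Leaving out 1 library gave ranges across 0 at PN3 for Tkt (-0.72 to 0.18) and Rpia (-1.31 to 2.35), and at L2C for Pgls (-7.70 to 0.72), Rpia (-0.30 to 1.23) and Rpe (-0.22 to 0.17). It also did so between the stages in WT for Tkt (-0.10 to 0.52) and Rpia (-2.10 to 0.12), in KO for Pgls (-7.97 to 0.42) and Rpia (-2.53 to 0.44), and for the interaction of Rpia (-1.77 to 1.89). The values near -8 rest on libraries with 0 counts. Pgls at L2C was called lower without the rRNA-rich libraries (edgeR adjusted p = 0.00215) and without KO L2C replicate 3 (0.00808), the KO libraries left having 0 counts. No other value that changed sign was called in either fit, and the cause of the others was not tested.

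Of the 6 members other than Taldo1, those called at L2C numbered 1, but 2 by DESeq2, 3 with the replicate block, 3 without the rRNA-rich libraries, and 1 to 3 without 1 library. Between the stages in KO 2 were called, but 0 with RLE or upper quartile scaling, DESeq2, only the groups compared, or L2C replicates summed. There 1 was called with library totals or no filter, 5 with the block or without the rRNA-rich libraries, and 0 to 2 without 1 library. For the interaction 1 was called, but 2 with the block, 4 without the rRNA-rich libraries, 0 with L2C replicates summed, and 1 to 2 without 1 library. The 4 called genes of the pentose phosphate list at L2C became 2 with library totals, 8 without the rRNA-rich libraries and 0 with L2C replicates summed, and the 0 at PN3 became 1 without the rRNA-rich libraries.

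Of all genes, 28 were called at PN3, but 78 with no filter, 503 by DESeq2, 566 with the block, 0 with only the groups compared (edgeR), 2029 without the rRNA-rich libraries, 1 with L2C replicates summed, and 1 to 35 without 1 library. The 3593 at L2C became 6815 with the block, 9797 without the rRNA-rich libraries, 351 with L2C replicates summed, and 1427 to 3430 without 1 library. The 1046 of the interaction became 619 with library totals, 2660 by DESeq2, 3772 with the block, 6057 without the rRNA-rich libraries, 0 with L2C replicates summed, and 259 to 1283 without 1 library. With L2C replicates summed, G6pdx (edgeR adjusted p = 0.0339) and Idh3b (0.0339) kept their calls at L2C, and the other list genes named for that comparison had 0.10 to 0.229. Library totals shifted the median gene between stages by 0.35 in WT and 0.42 in KO, where G6pdx was at -0.06. Beyond the values given with the replicate block in the text, the block changed no call of the members or of the list genes chosen by lowest adjusted p. Levels of Pgls at or under 3 counts cannot be compared at this depth.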
